A study of Homo sapiens with 12 samples.

Results

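VEGFA, 9 other genes of the response to low oxygen and of glycolysis, and their neighbours in the same pathways were followed in MDA-MB-231 cells, an established human line of triple-negative breast cancer. The 10 genes were chosen by gene symbol: VEGFA, ADM, NDRG1, BNIP3, SLC2A1, HK2, PFKFB3, PGK1, ENO1 and LDHA. They are 10 of the 27412 genes with read counts, and all 10 were among the 14950 genes with enough reads to be tested. Cells were kept for 24 h in vehicle (0.02% DMSO and 0.1% water), in 2 µM BITC, in 1 µM ZA, or in BITC+ZA, the 2 agents together at those doses. The labels give only abbreviations; what is known of the study makes BITC benzyl isothiocyanate, an electrophile of cruciferous plants, and ZA zoledronic acid, a bisphosphonate. Each of the 4 groups had 3 libraries made from total RNA of dishes plated in triplicate, and the labels do not say whether the dishes were separate cultures, so p-values may measure only technical spread.

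Cells sense oxygen through the HIF transcription factors, which pair an oxygen-labile alpha subunit (HIF1A or EPAS1) with ARNT. When oxygen is scarce the alpha subunit escapes the prolyl hydroxylases of the EGLN family and the ubiquitin ligase subunit VHL, and HIF binds a short DNA core, the hypoxia response element, near genes for blood vessel growth, glucose uptake and glycolysis. VEGFA encodes the growth factor that drives endothelial cells to form vessels, and stress pathways other than HIF also induce it. In many tumour cells glycolysis is high even in oxygen, and LDHA then turns pyruvate into lactate.

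The reads came from the labelled kind of cell as far as markers show. The mesenchymal and basal genes VIM, CD44, EGFR, AXL and CAV1 lay between 23.9 and 288 FPKM (fragments scaled by gene length and library total, a level per length), and ESR1, the oestrogen receptor gene, had at most 2 counts in a library. The endothelial and leukocyte genes PECAM1, CDH5 and PTPRC had at most 7 counts. Libraries held 15874857 to 17375664 counts. ZA library 1 stood apart: over 12122 genes its chi-square per gene against ZA libraries 2 and 3 was 16.0 and 14.4, whereas every other pair within a group gave 2.22 to 3.83. Libraries also differed in their trend on GC content, with a rank correlation across genes of −0.435 to −0.0123 in vehicle and BITC libraries, −0.376 in ZA library 1, 0.407 and 0.427 in ZA libraries 2 and 3, and 0.215 to 0.339 in BITC+ZA libraries. The mitochondrial share of counts was 3.48 to 3.60% in vehicle, 3.78 to 4.04% in BITC, 3.88 to 4.95% in ZA and 4.73 to 4.88% in BITC+ZA. A correction for GC content and length was therefore computed beside each result.

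Sequence upstream of 8 of the 10 genes, all but VEGFA and NDRG1, was at hand in RefSeq (build GRCh38.p14), for 11 start sites. Those of 3 genes are shown, in which capitals mark the core of the hypoxia response element, ACGTG or GCGTG, on either strand (CACGT or CACGC when it lies on the other strand). LDHA and ENO1 are shown because they are the genes with such a sequence that passed a test, and BNIP3 because it has the most matches among genes with 1 start site. Each is the 250 bases before the start site, 5′ to 3′ on the gene's strand. The deposited bounds of all 3 genes reach into these windows, so some annotated transcripts begin upstream of the RefSeq start.
LDHA, start site 1, chr11:18394313-18394562, plus strand: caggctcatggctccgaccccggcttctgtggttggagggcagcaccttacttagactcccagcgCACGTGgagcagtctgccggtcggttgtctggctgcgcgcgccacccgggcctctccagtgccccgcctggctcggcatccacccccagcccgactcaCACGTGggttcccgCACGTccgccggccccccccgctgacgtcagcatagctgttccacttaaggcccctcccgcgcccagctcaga
ENO1, chr1:8878687-8878936, minus strand: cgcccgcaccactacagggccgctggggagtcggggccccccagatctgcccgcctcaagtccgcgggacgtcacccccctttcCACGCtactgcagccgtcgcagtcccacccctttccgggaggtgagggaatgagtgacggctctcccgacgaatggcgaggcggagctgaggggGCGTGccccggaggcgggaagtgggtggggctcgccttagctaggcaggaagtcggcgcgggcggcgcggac
BNIP3, chr10:131981924-131982173, minus strand: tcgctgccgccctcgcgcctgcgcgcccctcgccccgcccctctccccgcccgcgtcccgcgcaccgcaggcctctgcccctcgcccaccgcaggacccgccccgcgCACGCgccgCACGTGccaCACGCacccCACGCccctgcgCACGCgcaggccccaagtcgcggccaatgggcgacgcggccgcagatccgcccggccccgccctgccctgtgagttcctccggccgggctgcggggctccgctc

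LDHA had 5 matches, which include overlapping ones, since the palindrome CACGTG holds ACGTG on each strand and counts as 2. ENO1 had 2 matches, 166 and 72 bases before the start, and BNIP3 had 6. Across the 11 windows, 10 held at least 1 core, and so did 7 of the 8 genes, SLC2A1 being the exception. The core is short and common: 43.2% of all 35116 RefSeq promoter windows of the same length hold it, and 7.76% hold at least 3 matches. The antioxidant response core TGACNNNGC (10.9% of all windows) and the AP-1 site TGACTCA or its complement TGAGTCA (4.20%) were in 0 of the 11 windows on either strand. The GC box GGGCGG was in 42.6% of all windows and in 10 of the 11. The 11 windows had a GC content of 64.8 to 81.6%, and the shares over all windows were not matched for GC content. A match describes letters only, and binding was not measured.

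Levels per length spanned a wide range. In vehicle ENO1 was highest at a mean of 507 FPKM, followed by LDHA at 243, SLC2A1 at 113, PGK1 at 83.8 and BNIP3 at 26.1. ADM at 13.9, HK2 at 12.9 and NDRG1 at 12.8 FPKM were neighbours whose libraries overlapped, PFKFB3 stood at 10.2, and VEGFA was the lowest at 7.78. The other neighbours in this order did not overlap in vehicle. The deposited length of VEGFA is 14431 bases, which lowers its value per length, and its vehicle level still matched or exceeded that of 90.6% of the 58735 genes with an FPKM value. Over all 12 libraries the highest value of a gene was at most 1.30 times its lowest, reached by VEGFA, and as little as 1.08 times for PGK1.

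**Figure D1:**
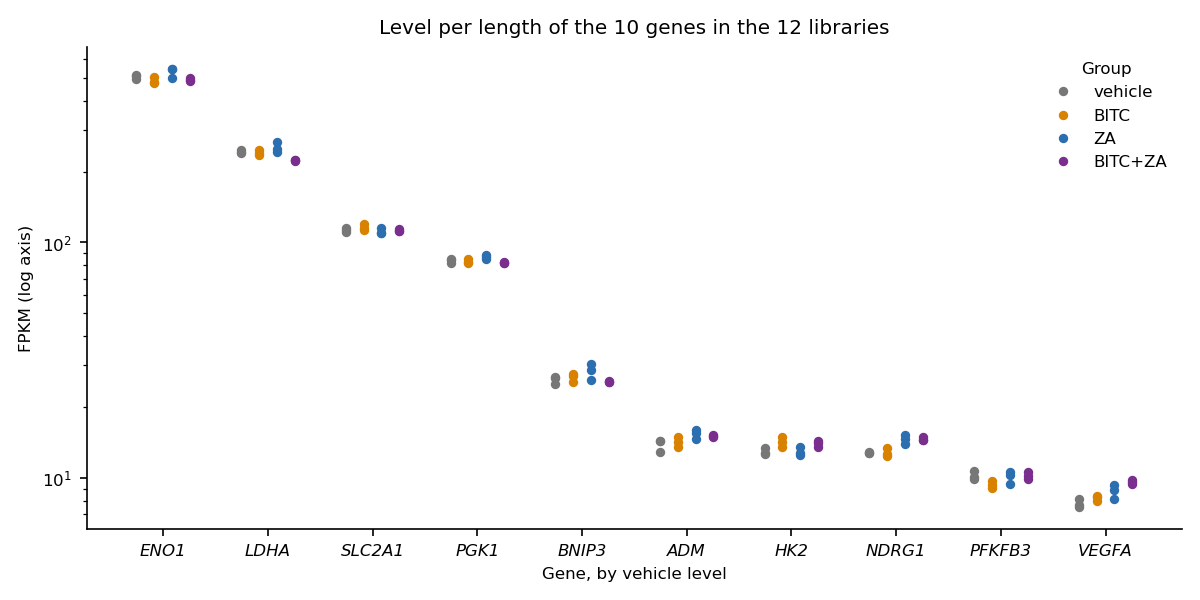
FPKM on a log axis of each gene in the 12 libraries, 1 point per library coloured by group, with genes ordered by their vehicle level. ENO1 lies highest at 475 to 546 FPKM and VEGFA lowest at 7.50 to 9.78, and differences between groups are small beside those between genes.

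VEGFA, the endothelial growth factor gene (ENSG00000112715, chr6:43770184-43786487, plus strand, GRCh38), rose under the combined treatment. In CPM (counts scaled to the normalized library total), the vehicle libraries 1 to 3 read 118, 111 and 108, and the BITC libraries 121, 121 and 116. The ZA libraries read 119, 137 and 130.3, and the BITC+ZA libraries 145, 141 and 139. Every BITC+ZA library lay above every library of the other 3 groups, while BITC overlapped vehicle. The group means were 112 ± 4.84, 119 ± 3.03, 129 ± 9.10 and 142 ± 3.20 CPM (SD, n = 3 each).

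Against vehicle the BITC+ZA level was 1.26-fold, a log2 change of 0.33 (SE 0.05, adjusted p = 0.000482, quasi-likelihood test of edgeR, Benjamini-Hochberg adjustment over all genes, used throughout). This call held in 23 of 23 other settings, with a log2 change of 0.27 to 0.36. VEGFA also rose in BITC+ZA against BITC (0.25, SE 0.05, adjusted p = 0.00572), but the GC and length correction reduced this to 0.08 (adjusted p = 0.251). The GC content of its longest annotated transcript is 54.6%, above the median of 48.2% over tested genes, and BITC and BITC+ZA libraries had opposite GC trends.

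Neither agent alone passed the test: the log2 change was 0.09 (95% interval −0.03 to 0.20, adjusted p = 0.468) for BITC and 0.20 (0.09 to 0.31, adjusted p = 0.0675) for ZA. With the correction both passed, at 0.18 (adjusted p = 0.0107) and 0.26 (adjusted p = 0.000837), and without ZA library 1 the ZA change was 0.25 (adjusted p = 8.23e-05). BITC+ZA against ZA differed by 0.13 (adjusted p = 0.143), and 0.00 after correction. The interaction, the log2 change under both agents less the changes under each added up, was 0.05 (95% interval −0.11 to 0.21, adjusted p = 0.814). With the correction the interaction was −0.18 (adjusted p = 0.0897), and it passed in none of 22 other settings. In the authors' deposited table VEGFA has a log2 fold change of 0.33 for BITC+ZA against vehicle with an adjusted p of 5.08e-10.

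**Figure D2:**
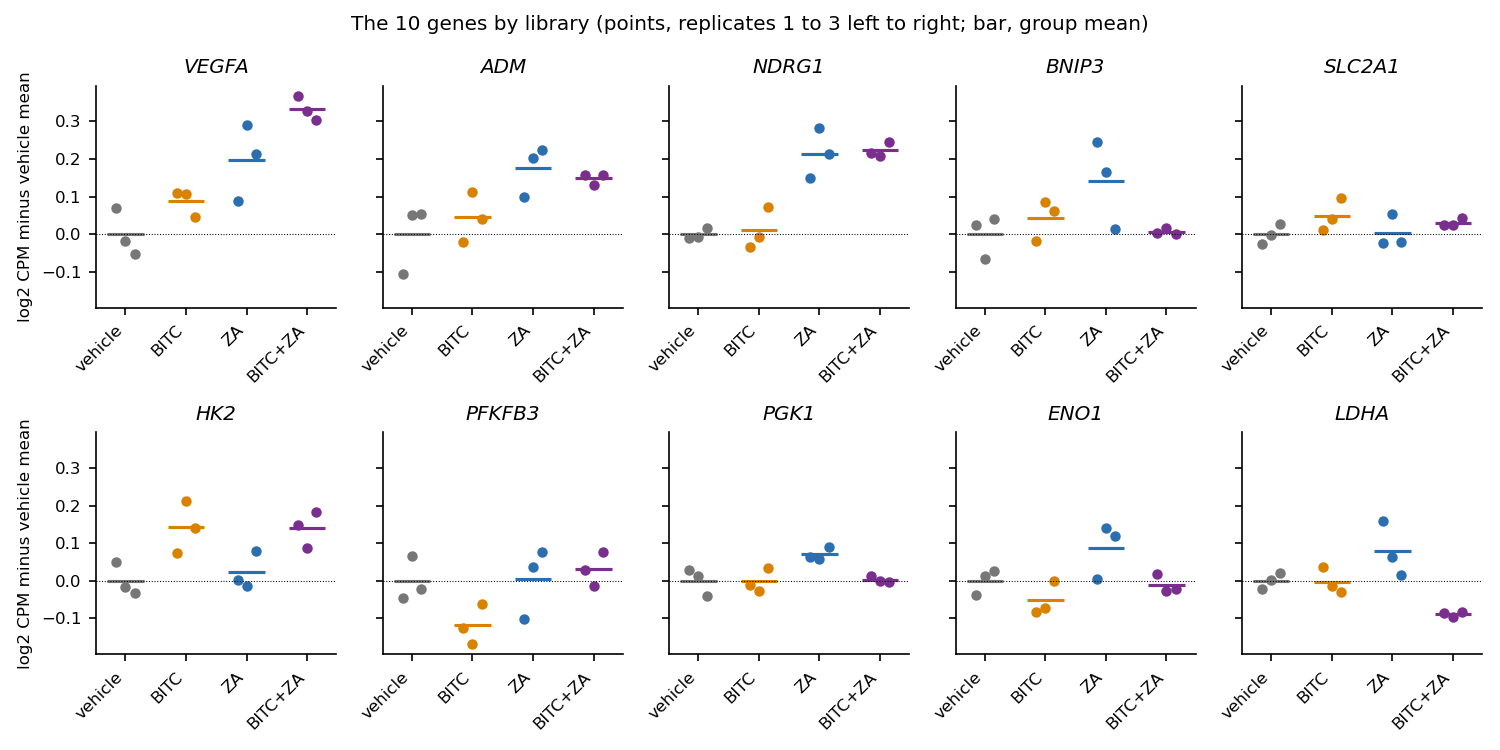
Log2 CPM of each gene minus its vehicle mean, 1 point per library (replicates 1 to 3 from left to right) and a bar for the group mean. VEGFA is highest in the 3 BITC+ZA libraries (139 to 145 CPM), NDRG1 is high in ZA and BITC+ZA, and LDHA is lowest in BITC+ZA (1414 to 1428 CPM).

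NDRG1, a stress and hypoxia-inducible gene known as a suppressor of metastasis (ENSG00000104419, chr8:133237171-133302022, minus strand), rose wherever ZA was present. Vehicle libraries read 125, 125 and 127 CPM and BITC libraries 123, 125 and 132. ZA libraries read 139, 153 and 146 CPM, and BITC+ZA libraries 146, 145 and 149. All 6 libraries with ZA lay above all 6 without it.

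The log2 change was 0.22 (SE 0.05, adjusted p = 0.0317) for ZA against vehicle, 0.22 (adjusted p = 0.00793) for BITC+ZA against vehicle, 0.21 (adjusted p = 0.00796) for BITC+ZA against BITC and 0.20 (adjusted p = 0.0105) for ZA against BITC. Those of BITC against vehicle and BITC+ZA against ZA were 0.01 each, with 95% intervals of −0.09 to 0.11 for both. These comparisons share libraries and are not independent. The ZA against vehicle call was the least stable, held in 10 of 23 other settings, and it was lost when any of 9 libraries was left out: each vehicle and BITC+ZA library, BITC library 1 and ZA libraries 2 and 3 (log2 change 0.18 to 0.22, adjusted p 0.0503 to 0.213). Leaving out ZA library 1 gave 0.25 (adjusted p = 5.54e-05). The other 3 calls, in the order given, held in 20, 19 and 18 of 23. Leaving out vehicle library 1 (adjusted p = 0.0549) or BITC+ZA library 3 (0.0594) ended that of BITC+ZA against vehicle. The call in BITC+ZA against BITC ended without BITC library 1 (adjusted p = 0.0631) or BITC+ZA library 3 (0.0501), and that in ZA against BITC without BITC library 1 (0.0698), BITC library 2 (0.0746) or ZA library 2 (0.0842). With the correction the change in BITC+ZA against BITC was 0.12 (adjusted p = 0.0413).

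ADM, which encodes the vasodilator peptide adrenomedullin (ENSG00000148926, chr11:10304680-10307397, plus strand), had vehicle libraries of 35.02, 39.03 and 39.1 CPM and BITC libraries of 37.1, 40.7 and 38.8. ZA libraries stood at 40.3, 43.3 and 44.0 CPM and BITC+ZA libraries at 42.0, 41.2 and 42.0. Both groups with ZA lay above vehicle without overlap, yet the log2 changes of 0.17 (95% interval 0.03 to 0.32, adjusted p = 0.215) and 0.15 (0.00242 to 0.29, adjusted p = 0.236) did not pass. ADM passed in ZA against vehicle once ZA library 1 was left out (0.21, adjusted p = 0.0318). The GC and length correction reduced both changes, to 0.07 (adjusted p = 0.715) and 0.03 (adjusted p = 0.822).

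BNIP3, a mitochondrial protein of cell death and mitophagy (ENSG00000176171, chr10:131966455-131982013, minus strand), was called in no comparison. Vehicle libraries read 142, 133 and 143 CPM, BITC libraries 137, 148 and 145, ZA libraries 165, 156 and 140.4, and BITC+ZA libraries 139.6, 141 and 139. Only 2 of the 3 ZA libraries exceeded the other groups, and ZA library 3 overlapped them. Its interaction of −0.18 missed the threshold (adjusted p = 0.21), and it passed with the correction (−0.24, adjusted p = 0.0378). Without ZA library 1, where BNIP3 was highest, the interaction was −0.13 (adjusted p = 0.251). With the correction and without that library it was −0.18 (adjusted p = 0.0543). Its 15 pseudogenes in the table hold counts equal to 1.99% of its own.

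Glucose enters through SLC2A1 (GLUT1, ENSG00000117394, chr1:42925375-42959176, minus strand), whose levels overlapped in all 6 pairwise comparisons. It read 525, 533 and 544 CPM in vehicle, 538, 549 and 571 in BITC, 525, 555 and 527 in ZA, and 543, 543 and 549.8 in BITC+ZA. The 95% interval of its log2 change against vehicle was −0.04 to 0.14 for BITC, −0.08 to 0.09 for ZA and −0.06 to 0.12 for BITC+ZA. With the correction SLC2A1 was called lower in BITC+ZA (−0.14, adjusted p = 0.00255) and in ZA (−0.13, adjusted p = 0.00551) than in BITC.

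HK2, the hexokinase that traps glucose as its phosphate (ENSG00000159399, chr2:74833981-74893359, plus strand), read 81.4, 77.7 and 76.9 CPM in vehicle, 82.7, 91.0 and 86.7 in BITC, 78.7, 77.9 and 83.0 in ZA, and 87.2, 83.5 and 89.2 in BITC+ZA. Both groups with BITC lay above vehicle without overlap, at log2 changes of 0.14 (95% interval 0.03 to 0.26, adjusted p = 0.216) and 0.14 (0.02 to 0.26, adjusted p = 0.157). The GC and length correction brought the BITC change past the threshold (0.17, adjusted p = 0.0273) and reduced the BITC+ZA change to 0.10 (adjusted p = 0.182).

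PFKFB3, which makes the activator of phosphofructokinase (ENSG00000170525, chr10:6144934-6254644, plus strand), read 60.5, 65.3 and 61.5 CPM in vehicle and 57.2, 55.5 and 59.8 in BITC, lower without overlap. ZA libraries read 58.2, 64.1 and 65.8 CPM and BITC+ZA libraries 63.7, 61.8 and 65.8. The BITC change of −0.12 did not pass (95% interval −0.25 to 0.01, adjusted p = 0.373). The GC and length correction reduced it to −0.06 (adjusted p = 0.602). Without ZA library 1, PFKFB3 was called higher in ZA (0.18, adjusted p = 0.0183) and in BITC+ZA (0.15, adjusted p = 0.0359) than in BITC. With the correction these 2 differences were 0.04 (adjusted p = 0.728) and 0.01 (adjusted p = 0.941).

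The enzymes of the lower pathway moved little, although the GC and length correction added calls for each of them. PGK1, phosphoglycerate kinase (ENSG00000102144, chrX:77910739-78129296, plus strand), had 472, 467 and 449.9 CPM in vehicle, 459, 454 and 474 in BITC, 483, 481 and 493 in ZA, and 466, 463 and 461 in BITC+ZA. ZA lay above all other groups without overlap, by 0.07 against vehicle (95% interval −0.01 to 0.15, adjusted p = 0.445). With the correction PGK1 was called higher in ZA than in BITC (0.14, adjusted p = 0.00853). Its corrected change in ZA against vehicle was 0.10 (adjusted p = 0.152). PGK1 shares its locus with ATP7A, on the same strand, whose counts equal 2.30% of those of PGK1.

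ENO1, the enolase that makes phosphoenolpyruvate (ENSG00000074800, chr1:8861000-8879250, minus strand), rose in ZA against BITC. Its vehicle libraries read 2608, 2703 and 2727 CPM, its BITC libraries 2529, 2548 and 2676, its ZA libraries 2686, 2952 and 2908, and its BITC+ZA libraries 2710.1, 2628 and 2639. ZA and BITC libraries did not overlap, with ZA library 1 closest. The log2 change was 0.14 (SE 0.04, adjusted p = 0.0328). It held in 10 of 23 other settings and was lost when any of 9 libraries was left out: vehicle libraries 2 and 3, BITC libraries 1 and 2, ZA libraries 2 and 3 and each BITC+ZA library (adjusted p 0.0506 to 0.178). The GC and length correction reduced it to 0.09 (adjusted p = 0.0342). Without ZA library 1 it was 0.19 (adjusted p = 2.91e-06), and ENO1 then also passed in ZA against vehicle at 0.13 (adjusted p = 0.00155). With the correction ENO1 was called lower in BITC+ZA than in ZA (−0.14, adjusted p = 0.000596).

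LDHA, which turns pyruvate into lactate (ENSG00000134333, chr11:18394388-18408425, plus strand), fell in BITC+ZA against ZA. Vehicle libraries read 1489.8, 1514 and 1534 CPM, and BITC libraries 1550.5, 1498 and 1481. ZA libraries read 1689, 1579.7 and 1528 CPM, and BITC+ZA libraries 1424, 1414 and 1428. All 3 BITC+ZA libraries lay below all 9 others. The log2 change against ZA was −0.17 (SE 0.04, adjusted p = 0.0155), a 1.12-fold lower level, and the call held in 19 of 23 other settings. It was lost without BITC+ZA library 2 (adjusted p = 0.0714) or 3 (0.062) and in a fit of those 6 libraries alone (0.156). Leaving out ZA library 1 gave −0.13 (adjusted p = 0.00201). With the correction LDHA was called higher in ZA than in vehicle (0.11, adjusted p = 0.027) and than in BITC (0.15, adjusted p = 0.000773).

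Against vehicle the LDHA change under BITC+ZA was −0.09 (95% interval −0.175 to −0.00247, adjusted p = 0.23), and against BITC it was −0.09 (adjusted p = 0.161). In the authors' deposited table, which was fitted per pair of groups, the adjusted p is 7.64e-06 and 0.00338 for these comparisons and 0.0526 for BITC+ZA against ZA. A fit of the 6 libraries alone gave −0.08 (adjusted p = 0.00401) against vehicle. The fit of the other 11 libraries, ZA library 1 left out, gave −0.09 in both comparisons (adjusted p = 0.019 against vehicle and 0.0149 against BITC). The GC and length correction reduced these changes to −0.07 against vehicle (adjusted p = 0.163) and −0.03 against BITC (adjusted p = 0.53). The SD of LDHA was 82.1 CPM in ZA and 7.42 to 36.4 CPM in the other groups. The interaction was −0.17 (95% interval −0.29 to −0.04, adjusted p = 0.121), and DESeq2 gave −0.17 with adjusted p = 0.0344. With the correction the interaction was −0.15 (adjusted p = 0.0286).

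**Figure D3:**
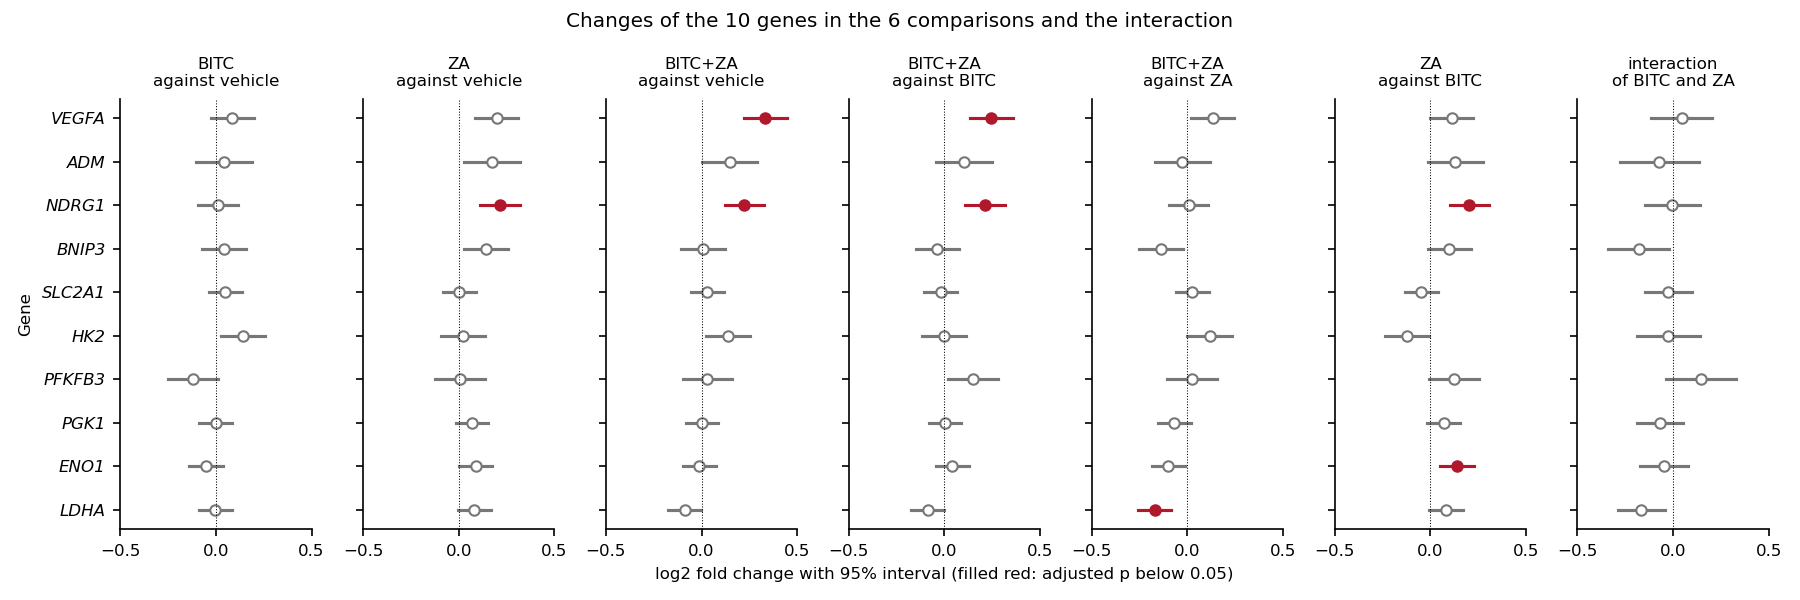
Log2 fold change with its 95% interval for each gene in the 6 pairwise comparisons and the interaction; filled red points have an adjusted p below 0.05. VEGFA and NDRG1 are called in BITC+ZA against vehicle (0.33 and 0.22), and 0 of the 10 genes are called for BITC against vehicle or for the interaction.

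Counted over the 10 genes, 0 were called for BITC against vehicle, where 1.78% of all tested genes were called; 1 of the 10 had an unadjusted p under 0.05, beside 15.3% of all genes, and DESeq2 also called 0. For ZA against vehicle 1 rose (NDRG1), beside 1.06% of all genes called, and all 10 log2 changes were above 0 with a median of 0.08, beside 0.02 over all tested genes. SLC2A1 (0.00345) and PFKFB3 (0.00582) lay near 0 there, and the correction put them at −0.04 and −0.02. For BITC+ZA against vehicle 2 rose (VEGFA and NDRG1), beside 4.9% of all genes called. For BITC+ZA against BITC the same 2 rose, beside 14.7%. LDHA alone fell in BITC+ZA against ZA, beside 6.95%, and NDRG1 and ENO1 rose in ZA against BITC, beside 10.5%. The interaction called 0 of the 10, beside 2.84% of all genes, while 2 had an unadjusted p under 0.05, beside 18.4% of all genes, and DESeq2 called 1.

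Without ZA library 1 the counts of called genes, in the same order, were 0, 4, 3, 4, 2, 4 and 0. That fit also called more of all 15275 genes it tested: 9.79, 16.3, 14.6, 26.9, 12.7, 29.6 and 5.59%. The added genes rose, with the exception of LDHA in both comparisons of BITC+ZA with vehicle and with BITC and of ENO1 in BITC+ZA against ZA.

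Levels without overlap between groups occurred in 2 of the 10 genes for BITC against vehicle, 4 for ZA against vehicle and 5 for BITC+ZA against vehicle, beside 25.2, 16.4 and 32.8% of all genes. They occurred in 5 for BITC+ZA against BITC, 4 for BITC+ZA against ZA and 3 for ZA against BITC, beside 38.1, 23.7 and 21.2%.

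**Figure D4:**
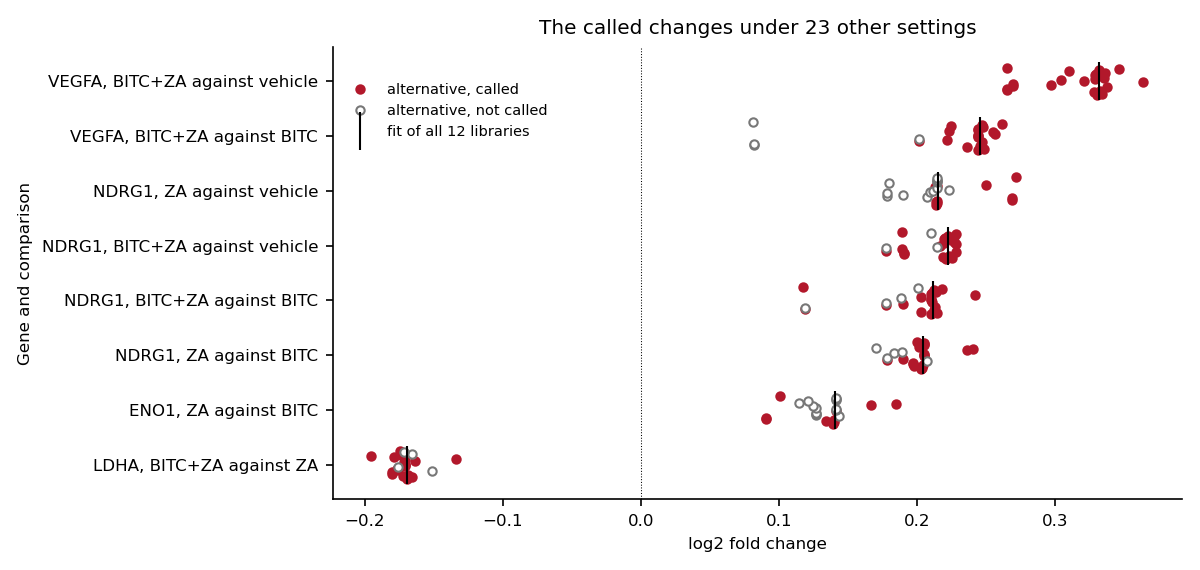
Log2 fold change of each called gene and comparison in the fit of all 12 libraries (bar) and in 23 other settings (points; red, called; open, not called). VEGFA in BITC+ZA against vehicle stays red throughout at 0.27 to 0.36, and NDRG1 in ZA against vehicle and ENO1 in ZA against BITC are red in 10 settings each.

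Of 9 other VEGF ligands and receptors, 6 were tested. In BITC+ZA against vehicle 0 of them rose and 1 fell, beside 4.9% of all genes called. VEGFB (36.3 to 49.8 FPKM) was higher in BITC+ZA (0.23, adjusted p = 0.0311) and ZA (0.24, adjusted p = 0.0299) than in BITC, but the correction gave 0.02 and −0.01. VEGFC (12.1 to 16.6 FPKM) and PGF (0.429 to 0.807) passed in no comparison, although VEGFC was called higher in BITC than in vehicle with the correction. Of the receptors that VEGFA binds, FLT1 had at most 4 counts in a library and KDR lay at 0.316 to 0.481 FPKM. The co-receptor gene NRP2 fell in BITC against vehicle (−0.50, adjusted p = 0.0301) and in BITC+ZA against vehicle (−0.59, adjusted p = 0.00471). Its level went from 13.1 ± 0.474 CPM in vehicle to 9.28 ± 0.465 and 8.73 ± 0.614. These calls held in 14 and 20 of 23 other settings. In ZA, NRP2 stood at 10.1 ± 1.46 CPM (8.71 to 11.6), also below the vehicle libraries (12.6 to 13.6), but was not called. NRP1, at 22.0 to 27.6 FPKM, was lower in ZA (−0.20, adjusted p = 0.00886) and BITC+ZA (−0.15, adjusted p = 0.0329) than in BITC. For adrenomedullin, the receptor gene CALCRL had at most 9 counts, and its partner RAMP1 was higher in BITC+ZA (0.58, adjusted p = 0.0169) and ZA (0.58, adjusted p = 0.02) than in BITC. The correction reduced the RAMP1 changes to 0.36 (adjusted p = 0.0301) and 0.33 (adjusted p = 0.0591).

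Of 10 genes for HIF subunits and oxygen sensing, 9 were tested, and 1 rose and 0 fell in BITC+ZA against vehicle. Over all genes 4.9% were called there. Other settings added falls there: DESeq2 called 1 (EPAS1), the correction 2 (EPAS1 and ARNT2), and the fit without ZA library 1 called 3 (those and HIF1A). Over all genes the correction called 9.95% in that comparison, and the fit without ZA library 1 called 14.6%. HIF1A, at 57.3 to 72.7 FPKM, was lower in BITC+ZA than in BITC (−0.19, adjusted p = 0.0402), and the correction gave −0.08 (adjusted p = 0.124). EPAS1 fell in BITC against vehicle (−0.25, adjusted p = 0.0194), from 80.3 ± 1.67 to 67.4 ± 2.60 CPM. It stood at 73.4 ± 4.48 CPM in ZA and 70.6 ± 0.756 in BITC+ZA, not called against vehicle in the main fit. Every library of the treated groups lay below every vehicle library. ARNT, VHL, EGLN1 and EGLN3, a HIF target as well as a sensor, passed in no comparison. EGLN2 rose in BITC+ZA against vehicle (0.62, adjusted p = 0.022), but it overlaps another gene on the same strand in GENCODE 29, had only 58 to 138 counts a library, and its value is uncertain. Messenger RNA does not measure HIF protein, which oxygen controls after translation.

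Of 24 further hypoxia-inducible genes, 23 were tested, and CA9, a common marker of hypoxia, had at most 2 counts in a library. Against vehicle 0 were called for BITC, 0 for ZA and 1 for BITC+ZA (DESeq2 gave the same counts, and 5, 2 and 3 had an unadjusted p under 0.05, beside 15.3, 15.2 and 20.5% of all genes). The correction called 2, 0 and 2 of them, beside 4.05, 2.26 and 9.95% of all genes. The fit without ZA library 1 called 2, 3 and 3, beside 9.79, 16.3 and 14.6%. In BITC+ZA, AK4, a mitochondrial adenylate kinase, fell by 0.28 on the log2 scale (adjusted p = 0.00353). Their median change in BITC+ZA against vehicle was −0.11, beside 0.00 over all genes and 0.03 over the 10 genes. AK4 fell against ZA too (−0.28, adjusted p = 0.00335). In BITC+ZA against BITC, 3 rose and 3 fell: PFKFB4 (0.42, adjusted p = 0.0161), DDIT4 (0.38, adjusted p = 0.00429) and BHLHE40 (0.23, adjusted p = 0.0236) rose, and FAM162A (−0.33, adjusted p = 0.0427), PLOD2 (−0.26, adjusted p = 0.0077) and LOX (−0.19, adjusted p = 0.0422) fell. With the correction 1 rose and 2 fell there. Over all genes 14.7% were called in that comparison, and 11.9% with the correction. In ZA against BITC 4 rose, led by ANKRD37 (0.96, adjusted p = 0.0189), BHLHE40 (0.41, adjusted p = 0.000416) and PFKFB4 (0.35, adjusted p = 0.0433). With the correction ANKRD37 (1.02, adjusted p = 0.00852) and BHLHE40 (0.36, adjusted p = 1.5e-05) held. PFKFB4 (0.25, adjusted p = 0.14) and the fourth, DDIT4 (0.11, adjusted p = 0.239), did not. ZA against BITC called 10.5% of all genes, and 9.75% with the correction.

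**Figure D5:**
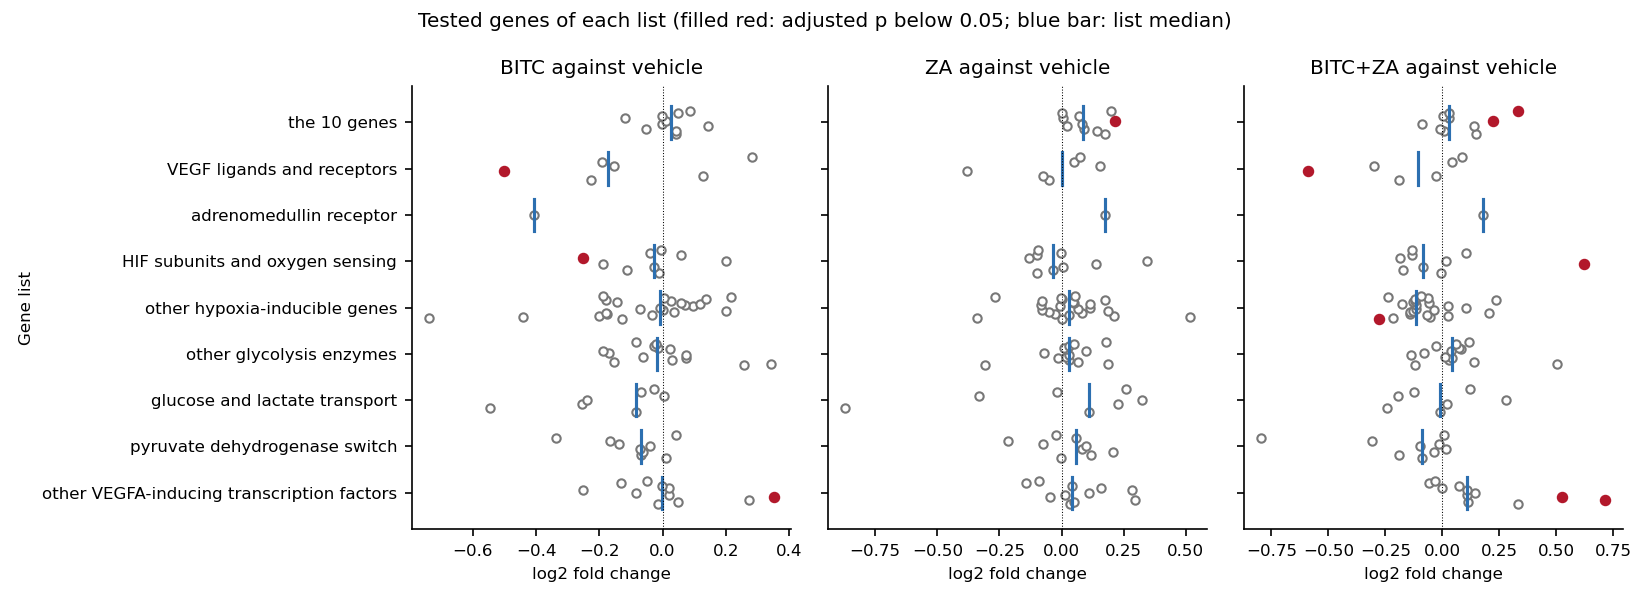
Log2 fold change against vehicle of every tested gene in each list, 1 panel per treatment; filled red points have an adjusted p below 0.05, the blue bar is the list's median, and the panels have their own scales. The 23 other hypoxia-inducible genes have a median of −0.11 in BITC+ZA, where VEGFA stands at 0.33.

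Of 14 further glycolysis enzymes, all tested, 0 were called against vehicle in any treated group. DESeq2 also called 0. An unadjusted p under 0.05 was found for 1, 1 and 2 in BITC, ZA and BITC+ZA, beside 15.3, 15.2 and 20.5% of all genes. With ZA library 1 left out, edgeR called 1, 4 and 1, beside 9.79, 16.3 and 14.6% of all genes. With the correction it called 1, 0 and 0, beside 4.05, 2.26 and 9.95%. GAPDH, at 588 to 631 FPKM, had log2 changes of 0.03 against vehicle in each treated group (adjusted p 0.715 to 0.788). TPI1 (0.20, adjusted p = 0.0361) and ENO2 (0.29, adjusted p = 0.0075) were higher in BITC+ZA than in BITC, and both were higher in ZA than in BITC (0.26, adjusted p = 0.0103, and 0.22, adjusted p = 0.0387). With the correction TPI1 was 0.05 in BITC+ZA against BITC (adjusted p = 0.337) and 0.12 in ZA against BITC (adjusted p = 0.0117). ENO2 was then 0.17 (adjusted p = 0.0285) and 0.12 (adjusted p = 0.145). ALDOA, listed at only 1.02 to 2.14 FPKM, overlaps another gene on the same strand in GENCODE 29, so its fall in ZA against BITC (−0.56, adjusted p = 0.031) is uncertain.

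Of 7 glucose and lactate transport genes, 0 were called against vehicle in any treated group by edgeR or DESeq2, and 1, 4 and 0 had an unadjusted p under 0.05 for BITC, ZA and BITC+ZA. Over all genes 15.3, 15.2 and 20.5% had such a p. The fit without ZA library 1 called 1, 4 and 0 of the transport genes, beside 9.79, 16.3 and 14.6% of all genes. The correction called 0, 1 and 1, beside 4.05, 2.26 and 9.95%. In ZA against BITC 3 rose: SLC16A3, the lactate exporter MCT4 (0.48, adjusted p = 0.0174), the sugar transporter SLC2A6 (0.28, adjusted p = 0.0303) and BSG, the chaperone of the lactate carriers (0.19, adjusted p = 0.0128). With the correction only SLC16A3 of these held, at 0.31 (adjusted p = 3.47e-06). ZA against BITC called 10.5% of all genes, and 9.75% with the correction. Of 9 genes that govern pyruvate entry into mitochondria, 0 were called against vehicle by edgeR or DESeq2, and 0, 1 and 2 had an unadjusted p under 0.05. The fit without ZA library 1 called 0, 2 and 1, and the correction 0 in each, beside the shares of all genes given for the transport genes. PDK4 (−0.85, adjusted p = 0.0342, 20 to 50 counts a library) and PDHB (−0.19, adjusted p = 0.0227) fell in BITC+ZA against ZA, and MPC2 rose in ZA against BITC (0.27, adjusted p = 0.0465).

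A further list held 11 transcription factors other than HIF, taken as candidate regulators of VEGFA. FOS, a subunit of AP-1, rose in BITC against vehicle (0.35, adjusted p = 0.0341), in BITC+ZA against vehicle (0.53, adjusted p = 0.000548) and in BITC+ZA against ZA (0.57, adjusted p = 0.000201). Its levels were 22.3 ± 1.18 CPM in vehicle, 28.5 ± 1.87 in BITC, 21.6 ± 2.51 in ZA and 32.1 ± 1.31 in BITC+ZA, with the means of both groups given BITC above those of both others. DDIT3, the stress factor CHOP, rose in BITC+ZA against vehicle (0.72, adjusted p = 0.00525), from 5.66 ± 0.444 to 9.30 ± 0.560 CPM. ATF4, its upstream activator, had 0.11 there (adjusted p = 0.194). In BITC+ZA against BITC, DDIT3 (0.44, adjusted p = 0.0467), JUNB (0.36, adjusted p = 0.0193) and JUN (0.23, adjusted p = 0.00837) rose, and the correction left 0 of these 3 past the threshold. In ZA against BITC, JUNB (0.53, adjusted p = 0.00173) and JUN (0.20, adjusted p = 0.0214) rose and FOS fell (−0.40, adjusted p = 0.00615). With the correction JUNB (0.30, adjusted p = 0.00738) and FOS (−0.46, adjusted p = 0.000138) held there, and JUN did not (0.07, adjusted p = 0.297). Without ZA library 1, 6 of the 11 rose in BITC+ZA against vehicle, FOS and DDIT3 among them, beside 14.6% of all genes called in either direction.

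The genes whose profile over the 12 libraries lay closest to that of VEGFA, by the root mean square difference of centred log2 CPM among 9406 genes with a mean of at least 10 CPM, were HNRNPH1 (0.0427), RABGGTB (0.0451), TNFRSF10D (0.0498), STARD3 (0.0616) and CPSF4 (0.0620). HNRNPH1, a splicing regulator, had 633, 652, 684 and 787 CPM in vehicle, BITC, ZA and BITC+ZA. NDRG1 was the nearest of the other 9 genes, at rank 25, ADM was at rank 327, and LDHA was the farthest at rank 4532. When ZA library 1 was left out, 3 of the 5 nearest genes were among the nearest 5, and over the 4 group means 0 were.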

How the data were processed

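The 10 genes and the pathway lists were chosen with earlier results of these data known. The submitters' processing notes name HISAT2, DESeq2 1.20.0 and the build GRCh38 (hg38). The counter, annotation release and strand setting are not given there, so overlapping and antisense genes cannot be told apart with certainty. Per the file headers, the authors deposited raw counts per gene in 6 comparison tables of 6 libraries each. Beside them stand a normalized signal (counts over size factors), log2 fold changes and p-values, also deposited by the authors. FPKM values were deposited for 58735 genes, with gene lengths.

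Counts were joined by gene identifier. The 6 tables had 0 conflicting counts, and 4593 missing values, all with FPKM 0, were set to 0. edgeR 4.0.16 (R 4.3.3) was run with TMM normalization, filterByExpr and the robust quasi-likelihood F test on 12 libraries in 1 model of 4 groups (8 residual degrees of freedom). Tests were two-sided and Benjamini-Hochberg adjusted over 14950 genes, and a gene was called at an adjusted p below 0.05. SE is the absolute log2 change over the square root of F. The fit was tested on simulated data. The text names all 10 genes and, per list and comparison, at most 3 called genes a direction by size, plus HIF1A, EPAS1, EGLN3, CA9, GAPDH and the VEGF ligands and receptors. Alternatives were DESeq2 1.42.0 and its size factors, no filter, limma 3.58.1 on log2(FPKM + 1) or log2(FPKM + 0.1), fits of 2 groups, a replicate block, each library left out, and offsets from a spline trend of each library on GC content and length.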

Additional observations from a re-analysis of the deposited data

How the results depend on the processing

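Over the 10 genes, no change that was called turned its direction in any alternative. Counts of called genes moved as follows. With the GC and length correction they were 2 for BITC against vehicle, 3 for ZA against vehicle, 3 for BITC+ZA against ZA, 5 for ZA against BITC and 2 for the interaction. Of all tested genes, that setting called 4.05, 2.26, 12.4, 9.75 and 5.11% in these comparisons. With the correction and without ZA library 1 the counts over the 10 genes were 3, 5, 3, 6 and 2 in that order, and 3 each for BITC+ZA against vehicle and against BITC. DESeq2 called 2 for ZA against vehicle and 1 for the interaction, and no low-count filter gave 2 for ZA against vehicle. In fits of the 2 groups compared the counts were 0 for ZA against vehicle, 4 for BITC+ZA against vehicle, 4 for BITC+ZA against BITC, 0 for BITC+ZA against ZA and 0 for ZA against BITC. limma on log2(FPKM + 1) and on log2(FPKM + 0.1) called 0 for ZA against vehicle and 1 for ZA against BITC. limma with no filter called 0 for ZA against vehicle, 1 for BITC+ZA against vehicle, 0 for BITC+ZA against BITC, 0 for BITC+ZA against ZA and 0 for ZA against BITC. Leaving out each library gave 0 to 4 for ZA against vehicle, 1 to 3 for BITC+ZA against vehicle, 1 to 4 for BITC+ZA against BITC, 0 to 2 for BITC+ZA against ZA and 0 to 4 for ZA against BITC. The number called over all genes also moved between settings, over the ranges given below. Where no share of all genes stands beside it, a higher count is not by itself a result about the 10 genes. The cause of these moves was not tested.

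The numbers of the labels did not pair the libraries: the correlation of deviations between same-numbered libraries ran from −0.274 to 0.259. A replicate block changed no call of the 10 genes in any comparison. The block together with the correction gave 2 called for BITC against vehicle, 3 for ZA against vehicle, 1 for BITC+ZA against BITC, 3 for BITC+ZA against ZA, 5 for ZA against BITC and 2 for the interaction. In BITC+ZA against BITC the 1 gene was SLC2A1, called lower (−0.14, adjusted p = 0.00437). VEGFA (0.08, adjusted p = 0.209) and NDRG1 (0.12, adjusted p = 0.0513) were not called there in that setting. Over all genes the number called ran from 56 to 1496 for BITC against vehicle, 1 to 2489 for ZA against vehicle, 257 to 2793 for BITC+ZA against vehicle, 45 to 4116 for BITC+ZA against BITC, 175 to 1962 for BITC+ZA against ZA, 88 to 4525 for ZA against BITC and 1 to 921 for the interaction, beside 266, 159, 732, 2205, 1039, 1577 and 425. The alternatives without ZA library 1 and with the correction for the pathway lists were chosen after seeing the data. Depth was 1831 to 2435 counts of VEGFA a library.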
